A study of Homo sapiens with 6 samples.

Results

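The mRNAs of 6 S100 genes (S100A2, S100A4, S100A6, S100A10, S100A11 and S100A16), the beta-thymosins TMSB4X and TMSB10, and the ferritin subunits FTH1 and FTL were followed through an AGO2 pull-down. These 10 genes, of 60708 counted, were chosen by name as abundant short mRNAs, and their level was read from the unstranded read counts of all 6 libraries. The human cell line MDA-MB-231, derived from a triple-negative breast cancer, was transfected with a miR-99b-5p mimic or a scrambled negative control at 25 nM and harvested after 18 hours. In AGO2-RIP-seq an antibody pulls Argonaute-2 (AGO2), the protein that carries miRNAs, out of a lysate together with its RNA, giving the AGO2-IP fraction, and what stays unbound is the flow-through fraction. Mimic cells gave 2 libraries of each fraction (biological replicates 1 and 2), and control cells gave 1 of each. The fraction of each control library rests on its sample label alone. The study's own listing of libraries gives them as replicates of control with no fraction, and its methods describe AGO2-IP replicates in pairs for control as for mimic, so the sources differ. If both were of 1 fraction, the control fraction ratios below would compare replicates and the control comparisons would not hold. No IgG pull-down was analysed here. Both arms were cells of the same line, and the labels do not say whether the fractions of a replicate came from 1 lysate.

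S100 proteins are small calcium-binding proteins with a pair of EF-hand motifs that bind and regulate other proteins, and several of them are known for their high level in invasive breast cancer cells. Beta-thymosins are short peptides that bind actin monomers and hold them in reserve for filament growth. Ferritin is the shell that stores iron in the cytosol, built from heavy (FTH1) and light (FTL) subunits, and translation of both mRNAs is held back by iron regulatory proteins that bind a stem-loop, the iron-responsive element, near the 5′ end.

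The sequences below are the miRNA, with its seed (bases 2 to 8) in capitals, and a stretch of each ferritin mRNA. That stretch holds the loop of the iron-responsive element (CAGTGN, in capitals), and is shown because iron regulatory proteins bind there when iron is low. Its relation to the AGO2 pull-down was not tested.
miR-99b-5p: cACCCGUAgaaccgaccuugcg
FTH1 bases 33 to 62: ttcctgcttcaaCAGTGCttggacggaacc
FTL bases 27 to 56: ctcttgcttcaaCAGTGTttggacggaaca
The miRNA sequence is that of RefSeq (GRCh38.p14, chr19:51692618-51692639, plus strand). The ferritin stretches are from the 5′ UTR of the canonical GENCODE release 44 transcripts, counted from the first base. The shortest seed match, ACGGGT on the mRNA strand, occurred in none of the 10 canonical transcripts, whereas 14.9% of 19942 canonical protein-coding transcripts and 2.74% of the 2083 of at most 1000 nucleotides (nt) held it. Other kinds of pairing were not searched for. CAGTGN is short, and 23.1% of 19917 transcripts held it within their first 200 bases. It also occurred once in the 5′ UTR of S100A2 and once in that of S100A16, and in no other 5′ UTR of the 10.

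All 6 S100 genes lie on the minus strand of chromosome 1 in GRCh38, between 151982915 and 153613145, each with 3 exons in its canonical transcript. S100A10 spans 151982915 to 151993859 and S100A11 spans 152032506 to 152047907. S100A6 (153534599 to 153536244), S100A4 (153543613 to 153550136), S100A2 (153561108 to 153567890) and S100A16 (153606886 to 153613145) follow further along. TMSB10 lies on chromosome 2 (84905656 to 84906671, plus strand) and TMSB4X on chromosome X (12975110 to 12977227, plus strand), again with 3 exons each. FTH1 lies on chromosome 11 (61959718 to 61967634, minus strand) and FTL on chromosome 19 (48965309 to 48966879, plus strand), with 4 exons each. The transcripts ran from 434 nt (S100A6) to 1203 nt (FTH1), with coding sequences of 135 nt in both thymosins, 273 to 318 nt in the S100 mRNAs, 552 nt in FTH1 and 528 nt in FTL.

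Gene counts totaled 38022779 to 48544756 read pairs in a mimic library but 8076375 and 7772149 in the control AGO2-IP and flow-through. Pairs that aligned to more than 1 place made up 76.7% and 73.7% of the control libraries. With mimic they made up 2.71% and 2.38% of AGO2-IP pairs but 9.69% and 19.2% of flow-through pairs. Pairs that lay on more than 1 gene made up 8.02% and 7.63% of mimic AGO2-IP pairs but 16.7% and 19.2% of mimic flow-through pairs. Control libraries had 0.598% (AGO2-IP) and 1.78% (flow-through) of these. Of the control flow-through counts, 43.4% fell on mitochondrial genes. Transfection and the differences in composition between control and mimic libraries cannot be told apart. Whether the differences between the mimic fractions bear on their fraction ratios was not tested. Of the markers of MDA-MB-231, all 5 (VIM, CD44, AXL, CAV1 and MSN) were present, with a summed level of 2341 to 4232 CPM (counts scaled to a common library size). The luminal list summed to 46.6 to 202 CPM. In it ERBB2 was at 37.7 to 172 CPM and GATA3 at 8.26 to 24.8 CPM, while ESR1, PGR, FOXA1 and CDH1 were each at 3.96 CPM or lower. The fibroblast list summed to 11.1 to 89.6 CPM and the blood list to 0.473 to 2.72 CPM. Of the blood list HBA1, HBB and CD3E were each at 0 in at least 1 library. The single count behind a value of the 10 genes was never below 182 (S100A2 in the control AGO2-IP) and reached 126325 (S100A6 in mimic flow-through 1).

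The first comparison asked how these mRNAs divided between the AGO2-bound RNA and the flow-through in mimic cells. Of the 10 mRNAs, 9 had a lower level in both AGO2-IP libraries than in either flow-through library, and S100A11 had a higher level in both. Across the 13078 genes tested, 28.1% lay wholly lower in the AGO2-IP and 28.5% wholly higher. The 10 genes together took 0.176% and 0.262% of all gene counts in mimic AGO2-IP 1 and 2, and 0.985% and 0.693% in mimic flow-through 1 and 2. The control libraries gave 0.429% (AGO2-IP) and 0.816% (flow-through). No 95% Wilson interval of these shares was wider than 0.0127 percentage points, counting error alone. CPM values are shares of the RNA of a fraction and do not measure how much RNA was pulled down. The median log2 fold change of the 10 was -2.41, beside -0.11 over all genes tested.

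**Figure D1:**
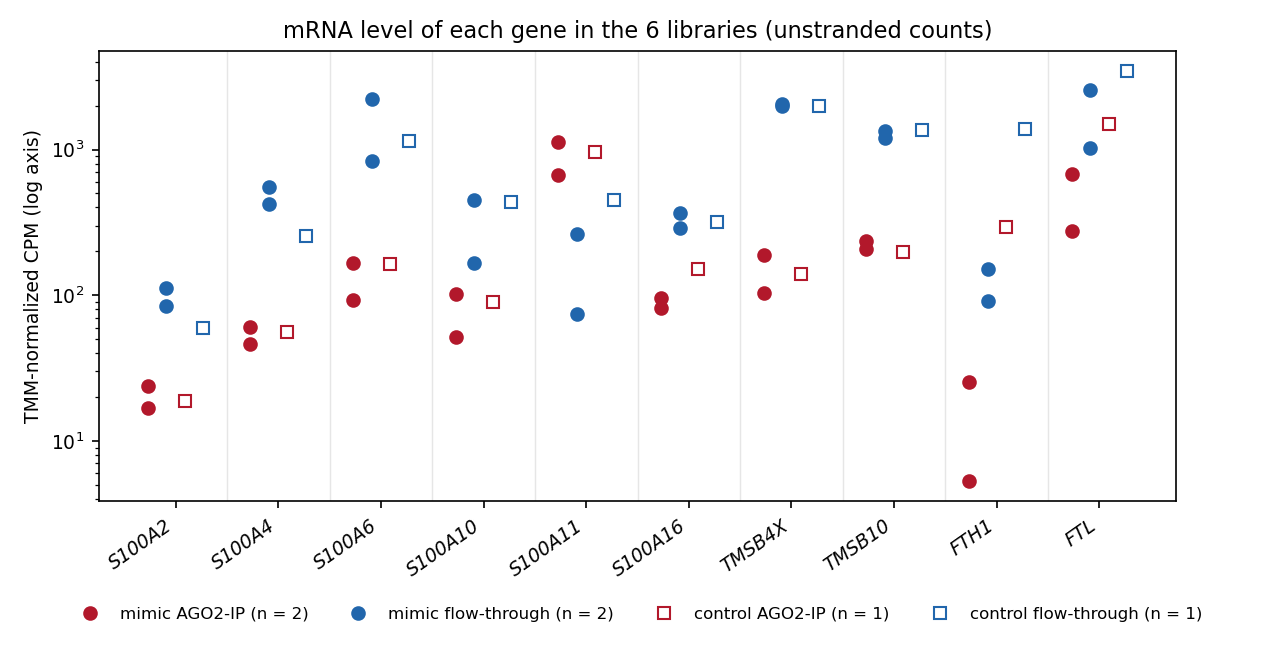
Level of each mRNA in each library, as TMM-normalized CPM of the unstranded counts on a log axis. Filled circles are the 2 mimic libraries of a fraction and open squares the single control library, with AGO2-IP in red and flow-through in blue. In mimic cells 9 mRNAs sit lower in the AGO2-IP than in the flow-through, and S100A11 sits higher.

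TMSB4X, which encodes thymosin beta-4, the main actin-sequestering peptide of many cells, had the most negative ratio of the 10. Its level was 104 and 189 CPM in the mimic AGO2-IP libraries, against 2051 and 1977 CPM in the mimic flow-through libraries. CPM values from here on are normalized over the 6 libraries by the trimmed mean of M values (TMM), computed anew for strand sums. The marker values above were scaled to library size alone. The flow-through libraries lay close together and far above both AGO2-IP libraries. The log2 fold change was -3.80 ± 0.65 (SE, n = 2 per fraction), a 13.9-fold lower level in the AGO2-IP, and it passed edgeR's quasi-likelihood test after Benjamini-Hochberg adjustment (adjusted p = 0.0383). TMSB10, its close relative, was at 235 and 209 CPM in the AGO2-IP and at 1208 and 1350 CPM in the flow-through. Its log2 fold change of -2.54 ± 0.59 did not pass the same edgeR test (adjusted p = 0.0625) but passed with the replicate number as a block (-2.54, adjusted p = 0.00653).

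S100A4, a protein that binds non-muscle myosin and is known for its association with metastasis, was the other mRNA that passed. It stood at 46.4 and 60.7 CPM in the mimic AGO2-IP libraries and at 425 and 550 CPM in the flow-through libraries. The fractions were well apart and the replicates of each close. Its log2 fold change was -3.20 ± 0.63 (edgeR, adjusted p = 0.0490), or 9.21-fold lower in the AGO2-IP. Thus 2 of the 10 mRNAs were called lower (a log2 fold change of at most -1 and an adjusted p of at most 0.05) and none higher, where 0.413% of all genes tested were called lower and 0.245% higher.

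The replicate numbers pair the fractions of the mimic libraries, and the fit with the replicate number as a block called 7 of the 10 lower and S100A11 higher. In that fit 5.08% of all genes were called lower and 4.6% higher. PyDESeq2 called 8 lower and S100A11 higher, beside 8.24% and 6.46% of all genes. All 10 had an unadjusted p under 0.05 in the fit without the block, as did 23.8% of all genes (3107 of 13078). With each library corrected for transcript GC content 5 were called lower, beside 2.36% of all genes (3.32% higher), and on the sum of both strand columns none was, beside 0.157% (0.0327% higher). With the block and the GC correction together 9 were called lower, beside 12.7% of all genes (14% higher), and with the block on the strand sums 6, beside 4.96% (4.83% higher). In both S100A11 was called higher. Leaving out a library leaves 1 in its fraction, which is assumed to vary like the other pair. Without mimic flow-through replicate 1 the fit called 8 lower and S100A11 higher, beside 20.6% and 20.2% of all genes. Without mimic flow-through replicate 2 it called 7 lower, beside 3.4% (1.9% higher), and without either AGO2-IP replicate it called none. The calls therefore depended on the model, whereas the direction of each of the 10 was the same in all 18 alternatives. These alternatives re-use the same mimic libraries, whose fractions did not overlap for any of the 10, so they are no independent check of direction.

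S100A6, or calcyclin, which binds the ubiquitin-pathway protein CACYBP, was the most abundant S100 mRNA of the flow-through. Its level was 167 and 92.7 CPM in the mimic AGO2-IP libraries, against 2235 and 832 CPM in the flow-through libraries. The flow-through replicates differed more than 2-fold, yet the lower one was well above both AGO2-IP libraries. A log2 fold change of -3.58 ± 0.72 narrowly missed the threshold (edgeR, adjusted p = 0.0529) and passed with the replicate block (-3.47, adjusted p = 0.000131).

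S100A2, known as a p53-responsive S100 protein of epithelial cells, was the least abundant of the 10 per kilobase of transcript, on the strand sums. It was at 23.7 and 16.8 CPM in the AGO2-IP and at 84.0 and 111 CPM in the flow-through. Its log2 fold change was -2.28 ± 0.62 (edgeR, adjusted p = 0.0831), and it passed with the block (-2.29, adjusted p = 0.0349). The fractions did not overlap.

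S100A10, the partner of annexin A2 at the plasma membrane, was at 52.0 and 102 CPM in the AGO2-IP and at 450 and 167 CPM in the flow-through. The higher AGO2-IP library and the lower flow-through library, both of replicate 2, came within 2-fold of each other. The log2 fold change of -2.01 ± 0.70 passed neither without the block nor with it (edgeR, adjusted p = 0.130 and 0.0881). S100A16, a widely expressed member of the family, was at 96.0 and 81.4 CPM against 365 and 289 CPM. Its log2 fold change of -1.89 ± 0.59 passed neither fit (edgeR, adjusted p = 0.108, and 0.0691 with the block). In PyDESeq2 both S100A10 (adjusted p = 0.0359) and S100A16 (adjusted p = 0.0173) passed.

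S100A11, a calcium-binding partner of annexin A1, ran the other way. Its level was 667 and 1132 CPM in the mimic AGO2-IP libraries, against 263 and 74.0 CPM in the mimic flow-through libraries. Both AGO2-IP libraries were above both flow-through libraries, and replicate 2 held both the highest AGO2-IP and the lowest flow-through value. On the log2 scale the fold change was 2.41 ± 0.73, or 5.30-fold higher in the AGO2-IP, and missed the threshold without the block (edgeR, adjusted p = 0.101). With the replicate block it was 2.62 and passed (edgeR, adjusted p = 0.0116), and it passed in PyDESeq2 (adjusted p = 0.0113). Within replicate 1 the log2 ratio of the normalized levels was 1.34 and within replicate 2 it was 3.93. Its canonical transcript shares no exon base with another annotated gene. By pairs that fit 1 place only, its 8 processed copies held at most 0.0646% of its count in a mimic library.

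**Figure D2:**
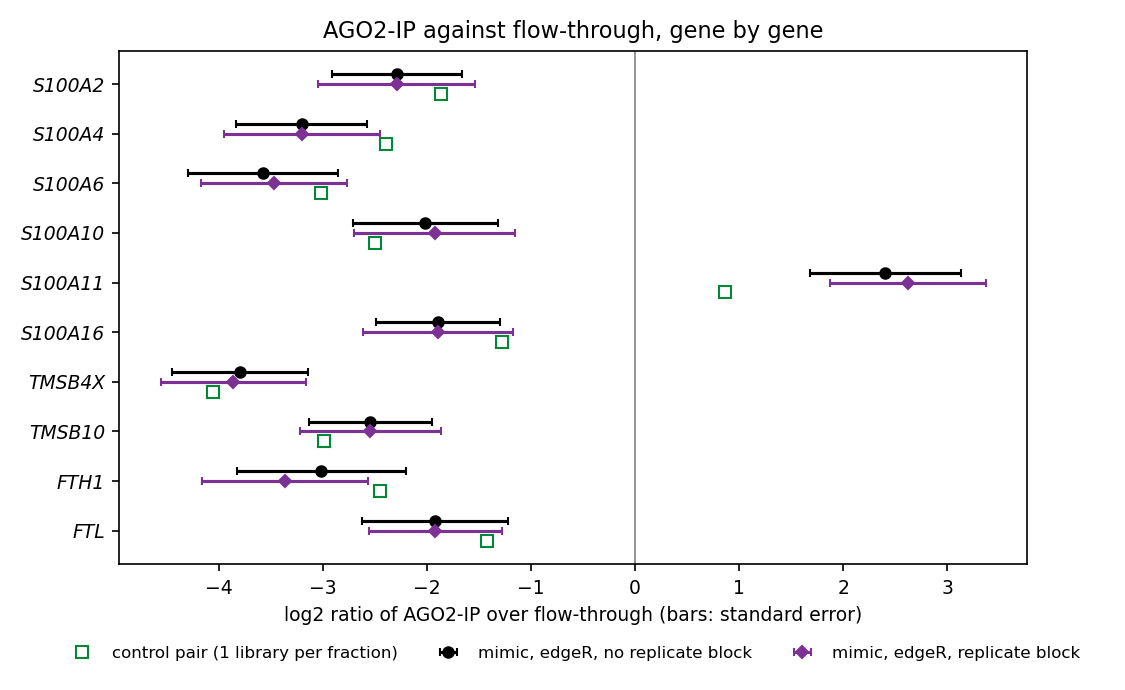
Log2 ratio of AGO2-IP over flow-through for each mRNA. Circles and diamonds are edgeR's estimates from the mimic libraries (2 per fraction) without and with the replicate block, with their standard errors, and open squares are the single control pair. S100A11 is the only one of the 10 to the right of 0, at 2.41 in mimic and 0.87 in control (TMM of the control pair alone), and TMSB4X is the furthest left, at -3.80 and -4.05.

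The iron-storage pair was lower in the AGO2-IP as well, with more spread. FTL was at 275 and 676 CPM in the mimic AGO2-IP libraries and at 1023 and 2543 CPM in the flow-through libraries. Within each fraction replicate 2 was the higher, and the within-replicate log2 ratios were alike at -1.89 and -1.91. The log2 fold change of -1.92 ± 0.70 did not pass (edgeR, adjusted p = 0.142) but passed with the replicate block (-1.92, adjusted p = 0.0356).

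FTH1 was at 5.31 and 25.2 CPM in the mimic AGO2-IP libraries and at 91.4 and 152 CPM in the flow-through libraries by the unstranded counts. Its log2 fold change was -3.01 ± 0.81 (edgeR, adjusted p = 0.0820), and -3.36 with the block (adjusted p = 0.00184). These counts left out most FTH1 reads. The canonical transcript shares 880 exon bases, 73.2% of its length, with exons of BEST1 on the opposite strand, and unstranded counting drops every pair that lies on both genes. Summing the deposited counts of the separate strands, a step chosen after the data were seen, gave 6521 and 9405 pairs in place of 262 and 970 in the AGO2-IP libraries. In the flow-through libraries it gave 46596 and 22252 in place of 5165 and 6359.

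The pairs gained for FTH1 matched those gained for BEST1 almost one for one, at 41431 and 41427 in mimic flow-through 1 and at 6259 and 6258 in mimic AGO2-IP 1. BEST1 itself kept 13 to 257 unstranded pairs in a library. The libraries carry no strand information, so a pair on the shared bases is counted once for each gene in the strand columns and cannot be assigned to either. On the strand sums FTH1 was at 117 and 217 CPM in the AGO2-IP and at 738 and 477 CPM in the flow-through, which again did not overlap. The log2 fold change was then -1.87 ± 0.61 (edgeR, adjusted p = 0.128), close to that of FTL, and -1.91 with the block (edgeR, adjusted p = 0.0597). The call of FTH1 with the block therefore rested on the unstranded counts. For TMSB10, which shares 9 bases with TRABD2A, the strand sum gave -2.44 in place of -2.54 (edgeR, adjusted p = 0.0770).

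**Figure D3:**
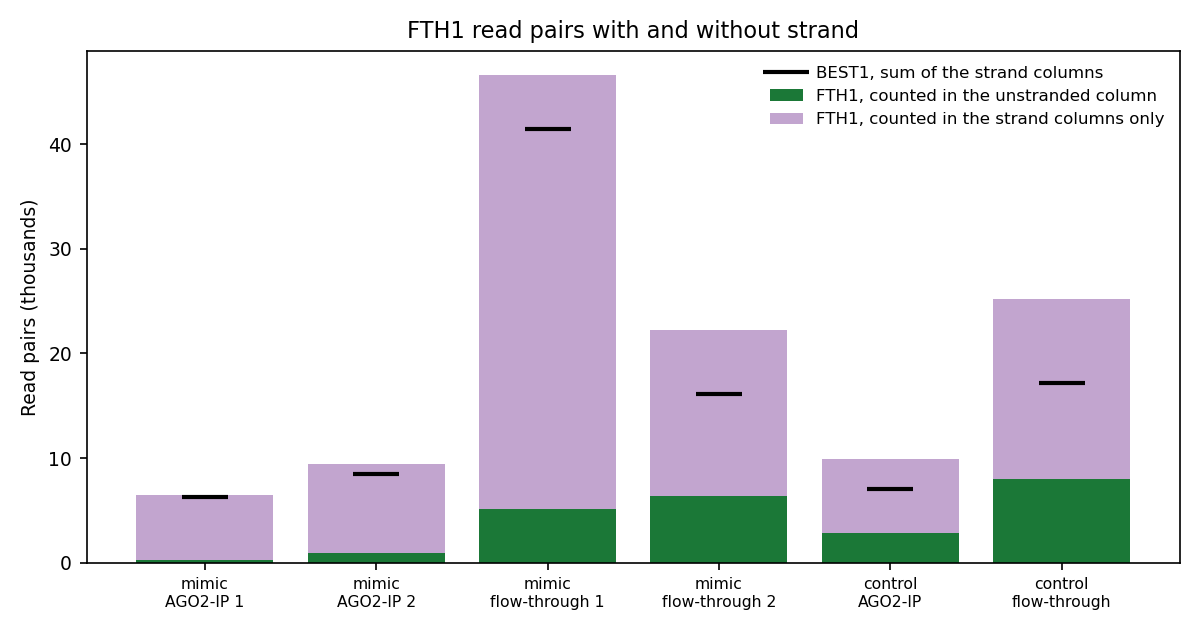
FTH1 read pairs in each library, in units of 1000 pairs. The green part of a bar is the pairs in the unstranded column, the violet part those counted only in the strand columns, and the black line marks the pairs that the strand columns give to BEST1. The green part is 262 of 6521 pairs in mimic AGO2-IP 1 and 8051 of 25220 in the control flow-through.

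The control pair gave the same question without replicates, so it has no test. Its log2 ratios used TMM of the pair alone and lie about 0.2 below those that follow from the CPM values, which are normalized over the 6 libraries (this second set was added after the data were seen). Of the 10 mRNAs, 9 had a log2 ratio of AGO2-IP over flow-through of -1 or lower on both scales, where 18.1% of 8245 genes did with TMM of the pair and 13.7% over the 6 libraries. S100A11 was again the exception, at 960 CPM in the AGO2-IP and 453 CPM in the flow-through. Its ratio was 0.87 with TMM of the pair and 1.08 over the 6 libraries, where 15.9% and 22.3% of the genes were at 1 or higher. TMSB4X was again the lowest, at 140 CPM in the AGO2-IP and 2000 CPM in the flow-through (-4.05 with TMM of the pair, -3.84 over the 6 libraries). TMSB10 was at 199 CPM in the AGO2-IP and 1358 CPM in the flow-through (-2.99 and -2.77).

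Among the other S100 mRNAs of the control pair, with the ratios in the same order of scales, S100A6 was at 164 CPM in the AGO2-IP and 1147 CPM in the flow-through (-3.02 and -2.80). S100A10 was at 89.3 and 434 CPM (-2.50 and -2.28), and S100A4 at 56.2 and 255 CPM (-2.40 and -2.18). S100A2 was at 18.8 and 59.3 CPM (-1.86 and -1.66), and S100A16 at 152 and 317 CPM (-1.28 and -1.06). FTL was at 1497 and 3445 CPM (-1.42 and -1.20). FTH1 was at 293 and 1377 CPM (-2.45 and -2.23, or -2.29 on the strand sums with TMM of the pair). Requiring a lower level in all mimic AGO2-IP libraries and a control ratio of -1 or lower (TMM of the pair) kept these 9 mRNAs, and 9.96% of 8225 genes. S100A11 was above in both arms, as were 26.4% of those genes.

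With library size alone in place of TMM the median of all genes in the control pair moved from 0.01 to 0.89, and the ratios of the 10 moved with it. On that scale 6 of the 10 were at -1 or lower, beside 5.06% of all genes, and S100A11 was at 1.76, where 46.1% of all genes were at 1 or higher. Leaving the mitochondrial genes out before TMM gave 9 at -1 or lower, beside 1481 of 8229 genes.

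Within the S100 family the fractions differed in make-up. Per kilobase of transcript, S100A11 made up 64.3% and 77.9% of the summed CPM of the 6 S100 mRNAs in the mimic AGO2-IP libraries and 68.9% in the control AGO2-IP. In the flow-through it made up 6.21% and 3.52% in mimic and 16.3% in control. S100A6 took the largest share of the flow-through in its place, with 68.6% and 51.4% in mimic and 53.7% in control, against 20.9%, 8.27% and 15.3% in the AGO2-IP libraries. A ratio within a library does not depend on the scaling between libraries, but it shows unequal change only.

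**Figure D4:**
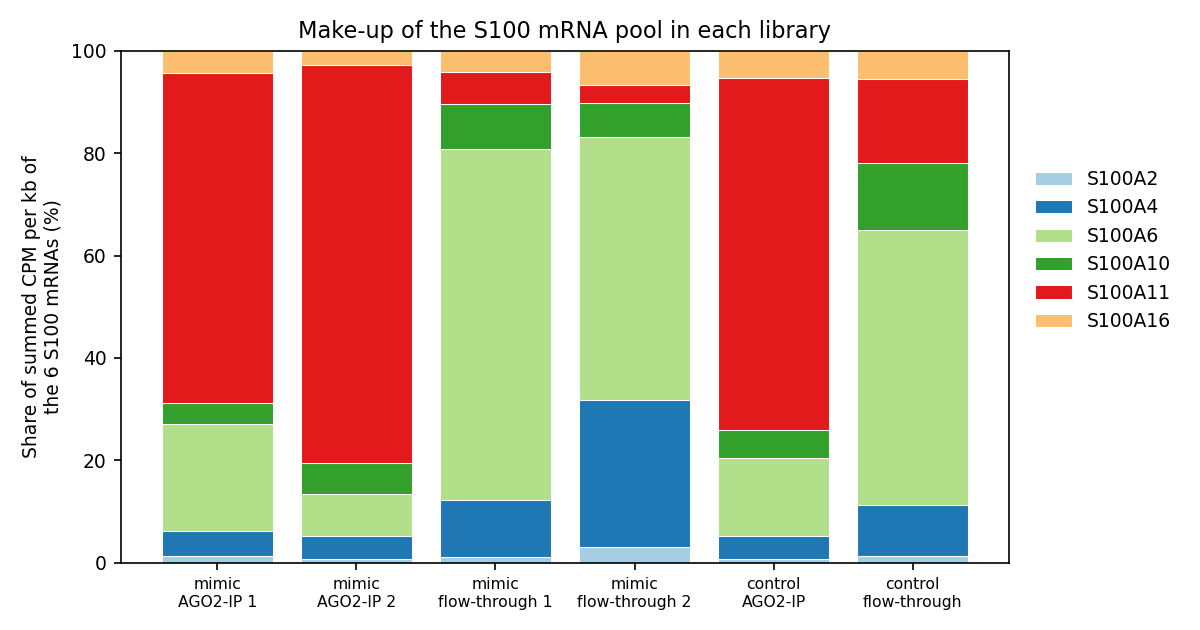
Share of each S100 mRNA in the summed CPM per kilobase of the 6 S100 mRNAs, in percent, for each library. S100A11 (red) fills 64.3% to 77.9% of the 3 AGO2-IP bars and 3.52% to 16.3% of the 3 flow-through bars.

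The order of the levels per kilobase, with strand sums so that FTH1 could be placed, followed the same lines. S100A11 ranked first of the 10 in both mimic AGO2-IP libraries (1052 and 1784 CPM per kilobase) and eighth and ninth in the mimic flow-through libraries (418 and 118). The mimic flow-through was led by S100A6 in replicate 1 (4614 CPM per kilobase) and by TMSB4X in replicate 2 (2850), and the places of TMSB4X, TMSB10 and S100A6 changed between the replicates. FTL led both control libraries (1574 and 3663 CPM per kilobase), with S100A11 second in the control AGO2-IP (1562). S100A2 was last in every library, at 15.3 to 102 CPM per kilobase.

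Over the 6 libraries the log2 levels of the 7 S100 and thymosin mRNAs other than S100A11 ran together, with Pearson's r of 0.73 to 0.98 between pairs. FTH1 and FTL ran together (0.95) and less closely with those 7 (0.42 to 0.73). S100A11 was negatively related to each of the other 9 (-0.92 to -0.24). These values describe 6 libraries that share depth and composition, and fall mostly between the fractions. The 5 protein-coding genes with profiles closest to the mean profile of the 10, among 11888, were PEA15, SH3BGRL3, RASSF4, CNOT3 and BCKDK (r = 0.995 to 0.997). Their canonical transcripts were 2420, 751, 3631, 2818 and 2036 nt long, in that order.

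The 10 mRNAs were chosen as short, and the fraction ratio of mimic cells varied with transcript length in general. The median log2 fold change of protein-coding genes was -1.68 for 79 transcripts of at most 500 nt, -1.35 for 534 transcripts above 500 and up to 1000 nt, -0.70 up to 2000 nt, -0.13 up to 4000 nt and 0.32 above. In the shortest 2 classes 59.5% and 57.1% of the genes lay wholly lower in the AGO2-IP, against 27.03% of all protein-coding genes. Of the 613 genes of at most 1000 nt, 5 (0.816%) had a log2 fold change at or above that of S100A11, and 17 (2.77%) at or below that of TMSB4X. S100A16 and FTH1, at 1172 and 1203 nt, are longer than this class.

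With the length trend of each library removed, the 9 mRNAs stayed below 0, at -0.99 (S100A10) to -2.81 (TMSB4X), and S100A11 stood at 3.54. None of the 10 was called in that fit (edgeR, lowest adjusted p = 0.0707, S100A11). Of the 10, 7 had an unadjusted p under 0.05, as did 2816 of the 13078 genes tested. No other gene was called in it either. TMSB4X and S100A4 thus lost their calls (edgeR, adjusted p = 0.0764 and 0.11).

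**Figure D5:**
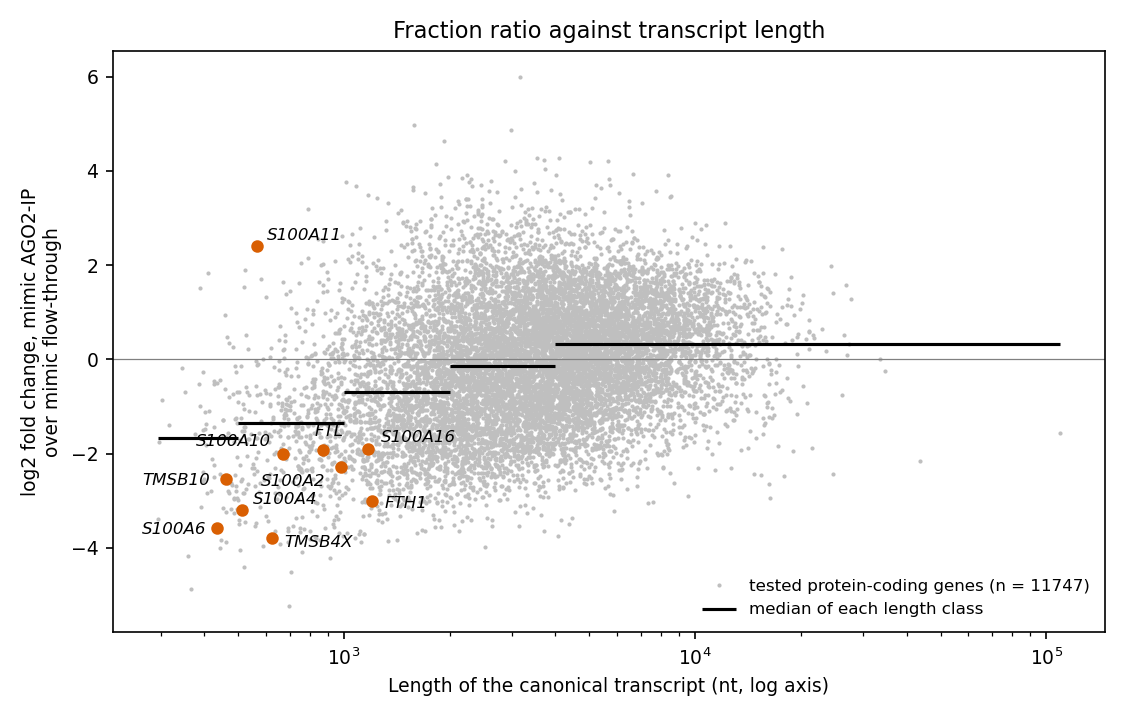
Log2 fold change of mimic AGO2-IP over mimic flow-through against the length of the canonical transcript on a log axis, for 11747 tested protein-coding genes (gray). Orange points are the 10 mRNAs and black lines the median of each length class. The medians climb from -1.68 in the shortest class to 0.32 in the longest, and S100A11 lies above the medians at 2.41.

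The next comparison asked whether the mimic altered the AGO2-bound level of these mRNAs, setting 2 mimic AGO2-IP libraries against the single control one. None of the 10 was called (edgeR), beside 0.165% of 13319 genes called lower and 0 higher. Of the 10, 7 lay within 1 SE of 0, at -0.34 (S100A6) to 0.16 (TMSB10), and their 95% intervals together ran from -2.11 to 1.78, so that a several-fold difference in either direction was not detectable. S100A11 was at 667 and 1132 CPM with mimic and 960 CPM in control, so that the control lay between the replicates. S100A16 was at -0.77 ± 0.69 (edgeR, adjusted p = 0.803).

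The ferritins were the furthest from 0. FTL was at 275 and 676 CPM with mimic and 1497 CPM in control, a log2 fold change of -1.65 ± 0.82 (edgeR, adjusted p = 0.648). FTH1 was at 5.31 and 25.2 CPM with mimic and 293 CPM in control, a log2 fold change of -4.26 ± 0.91 (edgeR, adjusted p = 0.267). It was the only one of the 10 with an unadjusted p under 0.05, as 7.88% of all genes had, and PyDESeq2 called it lower (adjusted p = 0.00169) beside 0.631% of all genes (0.503% higher). On the strand sums the levels were 117 and 217 CPM against 934 CPM, and the log2 fold change was -2.48 ± 0.72 (edgeR, adjusted p = 0.527). Leaving out mimic flow-through replicate 1 or 2 from the shared fit, with the AGO2-IP pair then the only replicated group, also ended with FTH1 called lower (edgeR, lowest adjusted p = 0.0177). In those fits 3.89% and 2.6% of all genes were called lower (2.18% and 1.26% higher).

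In the flow-through the same comparison called none of the 10 (edgeR), beside 0.113% of all genes called lower and 0 higher. TMSB4X was at 2051 and 1977 CPM with mimic and 2000 CPM in control, and TMSB10 at 1208 and 1350 CPM against 1358 CPM. Their log2 fold changes of 0.01 ± 0.74 and -0.09 ± 0.71 had 95% intervals of -1.61 to 1.63 and -1.63 to 1.46. FTH1 was at 91.4 and 152 CPM with mimic and 1377 CPM in control, a log2 fold change of -3.50 ± 0.89 (edgeR, adjusted p = 0.613).

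On these unstranded counts FTH1 was again the only one with an unadjusted p under 0.05, as 2.14% of all genes had. PyDESeq2, on the same counts, called it lower (adjusted p = 0.0433) beside 0.338% of all genes (0.0225% higher). On the strand sums it was -2.72 ± 0.72 (edgeR, adjusted p = 0.877). S100A11 was at 263 and 74.0 CPM with mimic and 453 CPM in control (-1.43 ± 0.83). S100A4 was at 425 and 550 CPM with mimic and 255 CPM in control (0.93 ± 0.75), and FTL was at 1023 and 2543 CPM against 3445 CPM (-0.95 ± 0.82). None of these 3 passed (edgeR, unadjusted p = 0.112, 0.236 and 0.272).

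The ratio of FTH1 to FTL within a library, on strand sums and per kilobase, was 0.906 in the control flow-through and 0.493 in the control AGO2-IP. With mimic it was 0.584 and 0.152 in the flow-through and 0.348 and 0.262 in the AGO2-IP. All mimic libraries were below the control library of the same fraction, although mimic flow-through 1 lay above the control AGO2-IP. FTH1 has 25 annotated pseudogene copies and FTL 16, and their counts came to at most 1.09% of the parent's strand sum in a mimic library. Pairs that fit both a copy and its parent are in neither count, so their number is not known from these values.

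The difference between arms in the fraction ratio was tested directly as an interaction. None of the 10 passed (edgeR, lowest adjusted p = 0.9999), none had an unadjusted p under 0.05 (0.616% of all genes did), and 0 of 13319 genes were called by edgeR or by PyDESeq2. S100A11 had the largest estimate, 1.33 ± 1.22, with a 95% interval of -1.34 to 4.01. For TMSB4X the estimate was 0.06 ± 1.05, with an interval of -2.24 to 2.35. FTH1 was at -0.76 ± 1.29 on the unstranded counts and at 0.23 ± 1.06 on the strand sums. With 1 control library per fraction, whose spread was taken from the mimic libraries, differences of this size were not detectable.

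Other genes of these pathways were read from lists, without regard to transcript length. In this comparison of the mimic fractions the median log2 fold change over all genes tested was -0.11. Of all genes 0.413% were called lower and 0.245% higher without the block. These shares were 5.08% and 4.6% with the block, and 8.24% and 6.46% in PyDESeq2. Of 14 other S100 genes only 3 had enough counts to be tested, none was called, and all 3 were below 0. S100A13, which is exported with FGF1 under stress, was at 1.66 and 0.805 CPM in the mimic AGO2-IP and at 10.1 and 12.1 CPM in the flow-through, and was called lower with the block (-3.26, edgeR, adjusted p = 0.00301) and in PyDESeq2. S100A3 and S100A5 had log2 fold changes of -1.35 and -1.66.

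Of 14 S100 partner genes all were tested and none called, with a median of 0.31 and 7 above 0. MYH9, the myosin that S100A4 binds, was at -0.03, ANXA2, the partner of S100A10, at 0.65 and AHNAK, a giant scaffold protein that S100A10 and annexin A2 bind, at 1.74. With the block AHNAK (1.81, edgeR, adjusted p = 0.0398) and CACYBP (2.27, edgeR, adjusted p = 0.0253) were called higher, and PyDESeq2 called CACYBP higher. The share of all genes called higher was 4.6% with the block and 6.46% in PyDESeq2.

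Of 17 actin, thymosin and prothymosin genes 16 were tested, none was called and 13 were below 0, with a median of -0.75. The most abundant, ACTB, ACTG1 (cytoplasmic actins) and CFL1 (cofilin, which severs filaments), were at -0.13, 0.12 and -1.30. With the block only PTMS, a prothymosin relative, was called, lower (-2.61, edgeR, adjusted p = 0.0134), and PyDESeq2 called PTMS and PFN1, the actin-binding profilin, lower. The share of all genes called lower was 5.08% with the block and 8.24% in PyDESeq2. Of 20 iron genes 17 were tested and none called by edgeR with or without the block, with a median of 0.34 and 12 above 0. ACO1, the cytosolic aconitase that doubles as an iron regulatory protein, was at 1.30, TFRC, the transferrin receptor, at 1.41 and NCOA4, the receptor for ferritin turnover, at 0.34. None of these 3 passed (edgeR, adjusted p = 0.199 to 0.765). PyDESeq2 called IREB2, the other iron regulatory protein, higher and PCBP1, an RNA-binding protein that also delivers iron to ferritin, lower. It called 6.46% of all genes higher and 8.24% lower. The edgeR log2 fold changes of IREB2 and PCBP1 were 2.04 (adjusted p = 0.119) and -2.12 (adjusted p = 0.139).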

How the data were processed

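RNA of AGO2-IP and flow-through fractions was sequenced in pairs. Per the study's methods the authors trimmed reads (cutadapt 3.5), aligned them to GRCh38 (STAR 2.7.11b, 2-pass) and deposited read counts per gene (unstranded, and for each strand), without normalization. STAR's gene counts leave out pairs that fit more than 1 place or gene, which lowers genes with copies or overlapping neighbors. Rows naming no gene were left out (21.4% to 95.0% of a library's pairs). Of 60708 identifiers, 60463 were matched to GENCODE release 44.

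Mimic fractions were compared with edgeR 4.0.16 (quasi-likelihood, TMM, summed count of at least 200, no replicate term, Benjamini-Hochberg over all genes), and mimic with control in 1 fit of 6 libraries that assumes the control libraries vary like the mimic ones. The control fractions were compared as log2 ratios without a test (TMM, CPM with a prior count of 2), and TMM was computed within each comparison. Calls needed a log2 fold change of 1 in size and an adjusted p of at most 0.05. Scripts were tested on simulated data. The labels give each mimic replicate both fractions, so the numbers were taken as pairs (r of deviations 0.324 over 13078 genes, which are not independent). Alternatives included PyDESeq2 0.5.4, DESeq2 size factors (DESeq2 1.42.0), other scalings and filters, single strands, the replicate block, trends on GC or length (lowess, span 0.2), and left-out libraries. PyDESeq2 gave no adjusted p for 254 genes between mimic fractions and for 1292 between AGO2-IP libraries. The members and lists were chosen with earlier results of these data known. All 10 members were named with their values, and lists were named by called genes or else the 3 with the highest counts.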

Additional observations from a re-analysis of the deposited data

Results flagged for a closer look

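The strand columns of the deposited counts, which the main comparisons did not use, held FTH1 and TMSB10 pairs that the unstranded column lacked, and in some mimic libraries more than 1 percentage point above the higher control library. For FTH1 the share of strand-counted pairs absent from the unstranded column was 96.0% in mimic AGO2-IP 1, 89.7% in mimic AGO2-IP 2 and 88.9% in mimic flow-through 1. Mimic flow-through 2 had 71.4%, the control AGO2-IP 71.3% and the control flow-through 68.1%. For TMSB10 the share was 21.2% in mimic AGO2-IP 1, 10.04% in mimic AGO2-IP 2 and 16.7% in mimic flow-through 1, while mimic flow-through 2 had 2.55%, the control AGO2-IP 7.18% and the control flow-through 4.24%. No 95% Wilson interval here was wider than 2.22 percentage points, counting error alone.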

How the results depend on the processing

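Between the mimic fractions the direction of each of the 10 mRNAs was the same under all 18 alternatives, which re-use the same mimic libraries. The number called lower, 2 in the comparison as reported, was not the same. It was 1 with DESeq2's size factors or library size alone, beside 33 and 35 of 13078 genes. With the GC trend removed it was 5 (beside 309 genes) and with PyDESeq2 8 (beside 1077). The forward strand, the reverse strand and the sum of both strands gave 0, beside 17 of 13852, 12 of 13736 and 24 of 15308 genes. Removing the length trend or keeping protein-coding genes only also gave 0, where 0 of all genes were called lower. It was 7 with the replicate block, 9 with the block and the GC trend removed, and 6 with the block on the strand sums, beside 5.08%, 12.7% and 4.96% of all genes. S100A11, not called as reported, was called higher (1 gene) with PyDESeq2 and in the 3 fits with the block. Leaving out 1 mimic library gave 0 (either AGO2-IP replicate) to 8 lower and 0 to 1 higher. Without flow-through replicate 1 it was 8 and S100A11 higher, and without flow-through replicate 2 it was 7, where 20.6% and 3.40% of all genes were called lower. Over all genes 32 were called higher and 54 lower as reported, 601 and 664 with the block, 845 and 1077 with PyDESeq2 and 0 and 0 with the length trend removed. In the control pair 1 mRNA, S100A11, passed a log2 ratio of 1 with library size alone or TMM over all 6 libraries, as did 46.1% and 22.3% of all genes. Against control, FTH1 was the 1 mRNA called lower with PyDESeq2 in each fraction, and in the AGO2-IP leaving out a library gave 0 to 1 lower (FTH1, without flow-through replicate 1 or 2, beside 3.89% and 2.6% of all genes). Of the values within 1 SE of 0, 18 of 98 (AGO2-IP), 23 of 84 (flow-through) and 14 of 126 (interaction) had the opposite sign under an alternative. The cause of these changes was not tested. With 1 control library per fraction, and 2 replicates elsewhere, differences of several-fold or more could go uncalled. In the edgeR fit of all 6 libraries FTH1, at -4.26 (AGO2-IP) and -3.50 (flow-through) against control, was not called. FTH1 counts also depend on the strand setting. The calls of FTH1 against control were all on the unstranded counts.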
